A study of Mus musculus with 9 samples.

Results

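The effect of 1 mutant Kcnd3 allele was examined by setting 3 heterozygous Kcnd3 F227del knock-in libraries (KI/+) against 3 wild-type libraries (WT), out of 9 libraries in the series. The other 3 libraries were from homozygous knock-in mice (KI/KI). Each library was made from cerebellar tissue enriched with Purkinje cells by laser microdissection, taken at 1.5 months from a mouse labelled female, and numbered as a biological replicate of its genotype. No group received a treatment. The F227del change removes 1 phenylalanine of the channel protein, at the position in its name, and a knock-in allele sits in the animal's own gene, so that every cell of a KI/+ mouse carries 1 mutant and 1 normal copy. All genes that passed an expression filter were members of the comparison, 10842 of the 56953 listed, of which 28052 had a count in at least 1 of the 6 libraries.

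Kcnd3 encodes Kv4.3, the pore-forming subunit of a voltage-gated potassium channel that carries a fast, rapidly inactivating (A-type) current below the firing threshold. Kv4 subunits assemble as tetramers and leave the endoplasmic reticulum (ER) together with cytosolic KChIP proteins and membrane-spanning DPP proteins, so a mutant subunit can be built into the same tetramer as a normal one. In people, dominant mutations of the gene cause spinocerebellar ataxia type 22 (SCA22), and patients carry the mutation on one of both copies, which makes KI/+ the genotype of the human disease. Purkinje cells are the output neurons of the cerebellar cortex and the cells that are lost in many of these ataxias.

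The mutated site is shown because it is the change in sequence after which the genotypes are named. In the mouse assembly GRCm38, GENCODE vM21 places Kcnd3 on the plus strand of chr3:105452330-105674002, and the codon of this phenylalanine, among 636 in the coding sequence, lies in exon 2, at chr3:105459494-105459496. The codon just before it, ttc, also encodes phenylalanine, and loss of either codon leaves the same protein. The sequence of the knock-in allele was not available here, so which of these bases it lacks was not checked. The normal coding strand around the site, at chr3:105459467-105459523, reads as below, 5′ to 3′. Capitals mark the codon that has the number in the name of the change.
Kcnd3, around the deleted codon: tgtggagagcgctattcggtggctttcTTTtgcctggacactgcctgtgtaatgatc

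Counts of reads per gene were compared after scaling to each library's total (CPM, counts per 1e+06 counted) by edgeR's TMM method. Total counts were 2777250, 2386344 and 2294609 in WT replicates 1 to 3 and 3035070, 2718017 and 1915339 in KI/+ replicates 1 to 3. No difference in totals between the genotypes was found (exact two-sided permutation test, p = 1), where 3 libraries against 3 cannot give a p under 0.1. P-values of the main fit set the difference between genotypes against a spread between libraries that was estimated from all 9, KI/KI included. In tissue of this kind fewer cells of a type and less RNA per cell cannot be told apart.

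Several features of the libraries bear on every value that follows. The 37 mitochondrial genes were listed at 0 in all 9 libraries, and of 784 genes from families that nearly all cells use, such as ribosomal and proteasomal proteins, 309 averaged 10 counts or more in these libraries and 124 had no count in any of them. Of the defining Purkinje cell genes, Calb1 and Car8 were among the most abundant, whereas Pcp2 had 0 to 4 counts a library and Ppp1r17, Slc1a6 and Gad2 were listed at 0. The counts of a gene name are therefore uncertain in many places. As a measure of this, named genes carry a neighbour count, which says how many of the 10 nearest genes of such families averaged 10 counts or more, and 1284 of the genes tested had at least 7 of 10. All 9 mice were labelled female, yet the Y-linked gene Ddx3y had 349 to 595 CPM in the 6 WT and KI/+ libraries and 0.378 CPM in KI/KI replicate 3. Xist, which females use to silence an X chromosome, had 97.4 to 135 CPM in those 6 libraries, with 0 of 10 neighbours counted.

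KI/+ replicate 3 stood apart from the other libraries. Among the 6 libraries it was the highest or the lowest for 42.7% of the genes tested, against 30.1 to 33.1% for each of the other 5. In 120 genes it lay at least 2-fold from the mean of the other 5 libraries, against 42 to 57 genes for each other library, and in 100 of these it was also the lowest of all 6. It was the shallowest library as well. The names of replicates 1 and 2 of each genotype begin with L1. Those of replicate 3 begin with L4 in WT, L3 in KI/+ and L2 in KI/KI, so these prefixes cannot be told apart from genotype. What the prefixes stand for is not stated. WT replicate 1 stood apart in another way, in that leaving it out changed the count of DEGs. It shared with the first replicate of KI/+ and of KI/KI a high level of Filip1l, at 3.07 to 3.68% of all counts. Over the 36 library pairs the smallest chi-square per gene was 1.28, between WT replicates 2 and 3. The first replicates of WT and KI/+ gave 1.47 with each other. WT replicate 1 gave 8.83 and 9.53 with the other WT libraries, and KI/+ replicate 1 gave 8.71 and 8.24 with the other KI/+ libraries. KI/+ replicates 2 and 3 gave 3.05. By this measure the first replicates lay closer to each other than to their own genotypes. No limit was set for calling 2 libraries the same, and whether any shared material was not tested. Results are given with all libraries, and without KI/+ replicate 3 or WT replicate 1 where a call or a value depended on them.

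No gene reached the study's criteria for a differentially expressed gene (DEG), a fold-change over 1.3 with an FDR under 0.2, in either direction. Of 10842 genes tested with edgeR's quasi-likelihood test, 0 (0%) were called lower and 0 (0%) higher in KI/+ than in WT mice, and the smallest FDR was 0.998. An unadjusted p under 0.05 was reached by 459 genes (4.23%), 254 with a lower mean level in KI/+ mice (2.34%) and 205 with a higher one (1.89%). The 3 KI/+ libraries lay wholly above the 3 WT libraries for 510 genes (4.7%) and wholly below for 504 (4.65%), together 1014 (9.35%). The log2 fold-change was under 0 for 5461 genes (50.4%). With the 6 WT and KI/+ libraries alone in the fit the counts were again 0 and 0, with 388 of 10381 genes (3.74%) at an unadjusted p under 0.05. DESeq2 on the 9 libraries also called 0 genes, with 212 at an unadjusted p under 0.05, and limma-voom called 0, with 635. Without KI/+ replicate 3 the count stayed at 0 of 11181 genes in each direction, with 461 (4.12%) at an unadjusted p under 0.05. Without WT replicate 1, 27 genes were called lower and 6 higher, with 733 (6.6%) at an unadjusted p under 0.05, and these are described below. Without that library and KI/+ replicate 3, 28 (0.253%) were called lower and 7 (0.0634%) higher of 11047, with 859 (7.78%) at an unadjusted p under 0.05. With no filter on low counts, 32 (0.104%) were called lower and 6 (0.0196%) higher of 30626, with 937 (3.06%) at an unadjusted p under 0.05, and these calls included Basp1, Pdzd2, Vamp1 and Foxp2.

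The size of change that the data leave room for depended on how abundant a gene was. For each gene a 95% interval was placed around the log2 fold-change, and a given fold lay outside it when the whole interval was smaller than that fold in both directions. A 2-fold change lay outside the interval for 9075 of 10842 genes (83.7%), a 1.5-fold change for 6232 (57.5%), and a 1.3-fold change, the study's own limit, for 3655 (33.7%). The largest change still inside the interval had a median of 1.43-fold and stayed under 2.24-fold for 90% of the genes. These intervals hold for 1 gene at a time. When all were widened to hold together by the Bonferroni method, a 2-fold change lay outside for 3875 genes (35.7%) and a 1.3-fold change for 1.

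The limits went with abundance. Among 2981 genes with a mean of less than 10 CPM, which had a median of 13.5 counts a library, the largest change inside the interval had a median of 2.06-fold, and 2-fold lay outside for 45.2%. From 10 to 30 CPM (2935 genes) the median was 1.5-fold and 2-fold lay outside for 96.1%. From 30 to 100 CPM (2791 genes) it was 1.28-fold and 99.7%. Genes at 100 to 300 CPM (1477 genes) had a median of 1.19-fold, and 91% of them had an interval within 1.3-fold. At 300 CPM and above (658 genes) the median was 1.15-fold. Taken in 1 direction, a 2-fold rise lay outside the interval for 2249 of the 2981 genes under 10 CPM and a 2-fold fall for 2017. For the rest a change of this size stayed inside the interval and was not excluded with 3 libraries a group. Without KI/+ replicate 3, the same 10842 genes gave 8685 with 2-fold outside the interval (80.1%) and 3290 with 1.3-fold outside (30.3%). With the filter applied anew, 2-fold lay outside for 77.7% of 11181 genes without that library and for 76% of 11107 without WT replicate 1. Among the 1284 genes with at least 7 of 10 neighbours counted, 2-fold lay outside for 86.3%.

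**Figure D1:**
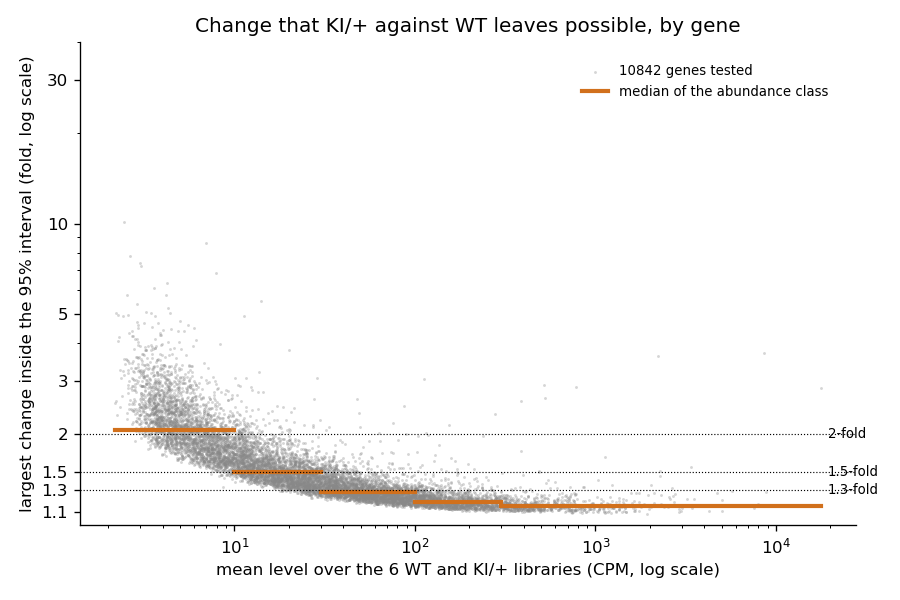
Each grey point is 1 of the 10842 genes tested, with its mean CPM over the 6 WT and KI/+ libraries (x axis, log scale) and the largest fold-change in either direction still inside its 95% interval for KI/+ against WT (y axis, log scale). Orange lines are the medians of 5 abundance classes, which go down from 2.06-fold under 10 CPM to 1.15-fold at 300 CPM and above, dotted lines mark 1.3-, 1.5- and 2-fold, and 2 genes lie above the top of the axis at 40-fold.

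The tightest limits fell on abundant genes. Vcp encodes an ATPase that pulls misfolded proteins out of the ER for degradation. Its level was 1416, 1453 and 1509 CPM in WT and 1469, 1462 and 1494 CPM in KI/+ libraries, with 8 of 10 neighbours counted. The KI/+ libraries lay inside the WT range, the log2 fold-change was 0.02 (SE 0.06), and the largest change in its interval was 1.1-fold. March6, an ER-membrane ubiquitin ligase, had 1100, 1070 and 1111 CPM in WT and 1120, 1141 and 1172 CPM in KI/+ libraries. Its KI/+ libraries all lay above WT, and its largest change was 1.14-fold. Frrs1l, an ER protein that helps AMPA receptors assemble, had a largest change of 1.16-fold, as did Leng8. The fifth gene of this group, the cannabinoid receptor Cnr1, is described with the genes of smallest p.

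Kcnd3 itself was too sparse to be resolved. Its counts were 21, 5 and 10 in WT and 12, 13 and 6 in KI/+ libraries (7.86, 2.08 and 4.32 against 4.14, 4.81 and 3.16 CPM), with 3 of 10 neighbours counted. The genotypes overlapped, and the log2 fold-change of −0.23 (SE 0.45) had a 95% interval from −1.17 to 0.71. A 2-fold lower and a 1.5-fold higher level were both inside it. Its sign turned to 0.37 without WT replicate 1. These counts do not tell the mutant from the normal transcript.

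The partners of Kv4.3 showed no call. Of the 11 members of the Kv4 complex list, 9 passed the filter, 6 with a positive and 3 with a negative log2 fold-change and a median of 0.07, against −0.0015 over all genes tested. The list median was 0.17 without KI/+ replicate 3 and 0.25 without WT replicate 1, against −0.0011 and 0.0017 over all genes. Kcnd2, which encodes the related pore subunit Kv4.2, was the most abundant member, at 1800, 1348 and 1470 CPM in WT and 1916, 1627 and 1302 CPM in KI/+ libraries. The genotypes overlapped, and its interval ran from −0.21 to 0.35. Kcnip3, a KChIP that also acts as a calcium-dependent transcription repressor, had 116, 101 and 105 CPM in WT and 128, 118 and 121 CPM in KI/+ libraries. Among the 9 its genotypes alone did not overlap, where 9.35% of all genes did not, with a log2 fold-change of 0.19 (SE 0.10, interval −0.02 to 0.40). For Kcnip1, Kcnip2, Kcnd1 and the Kv beta subunit Kcnab2 the largest change in the interval lay between 1.26- and 1.43-fold. Dpp6 and Kcnip4, at under 20 CPM, left 1.85- and 2.73-fold. Dpp10 and Kcnab1 did not pass the filter.

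Purkinje cell markers were next examined, since the tissue was selected for these cells. Of 23 markers, 9 passed the filter, 0 were called and 2 (Calb1 and Car8) had an unadjusted p under 0.05, where 4.23% of all genes did. The median log2 fold-change was 0.08, with 6 above and 3 below 0, and the summed level of the 23 genes overlapped between the genotypes. Calb1 encodes calbindin, the calcium buffer that marks Purkinje cells in histology, and had 9 of 10 neighbours counted. It stood at 5805, 5092 and 4917 CPM in WT and 5976, 6024 and 6522 CPM in KI/+ libraries. All 3 KI/+ libraries lay above all 3 WT libraries, by a log2 fold-change of 0.23 (SE 0.07, interval 0.08 to 0.37, edgeR FDR 0.998), and by 0.19 without KI/+ replicate 3. Of all genes tested, 9.35% did not overlap in one or the other direction. Car8, which binds the IP3 receptor, had a log2 fold-change of 0.21 (SE 0.07), but its genotypes overlapped. Without WT replicate 1 the edgeR FDR was 0.098 for Calb1 and 0.0785 for Car8, with log2 fold-changes of 0.30 for both, below the 1.3-fold limit of a DEG. The IP3 receptor gene Itpr1 stood at 2704, 2528 and 2599 CPM in WT and 2666, 2460 and 3533 CPM in KI/+ libraries. Its log2 fold-change of 0.14 rested on KI/+ replicate 3 and was −0.03 without it.

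Markers of the other cell types that the captured tissue could hold gave no call either. Passing the filter were 7 of 13 granule cell genes (median log2 fold-change −0.09), 5 of 9 interneuron genes (0.06), 4 of 12 genes of Bergmann glia and astrocytes (0.14), 6 of 13 oligodendrocyte genes (−0.08), 3 of 7 vessel genes (0.09), 2 of 12 microglial genes, 2 of 6 choroid plexus genes and 1 of 5 blood genes. The granule cell median was −0.08 without KI/+ replicate 3 and 0.11 without WT replicate 1. Gfap, the intermediate filament of astrocytes, had means of 793 CPM in WT and 810 CPM in KI/+ libraries. Mbp, which encodes myelin basic protein, had 2204, 2632 and 2622 CPM in WT and 2629, 1911 and 1695 CPM in KI/+ libraries, a log2 fold-change of −0.26 (SE 0.13, interval −0.53 to 0.02). The summed level of the 13 oligodendrocyte genes was 2514 to 2931 CPM in WT and 1989 to 2927 CPM in KI/+ libraries, so that the genotypes overlapped. Of all these markers, microglial Tmem119 and the choroid plexus folate receptor gene Folr1 had an unadjusted p under 0.05, where 4.23% of all genes did. Tmem119 had 27, 21 and 19 counts in WT and 47, 36 and 21 counts in KI/+ libraries, with 3 of 10 neighbours counted. In CPM these KI/+ libraries lay above WT (log2 fold-change 0.60, SE 0.24), whereas the microglial gene Itgam gave −0.11. The summed level of the 12 microglial genes was 17.5 to 19.8 CPM in WT and 20.5 to 22.6 CPM in KI/+ libraries, and 5 of the 12 were at 0 in every library. These sums did not overlap, where 9.35% of single genes tested did not, and Tmem119 is part of them. The KI/KI sums, at 15.1 to 18.4 CPM, overlapped those of WT.

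The ER, where Kv4 subunits are folded and assembled, was read through 29 genes of the unfolded protein response (UPR), the program by which cells raise chaperones and degradation when misfolded protein builds up there. Of these, 12 passed the filter, 0 were called, 8 had a positive and 4 a negative log2 fold-change, and the median was 0.03. For all 12 a 2-fold change lay outside the interval, and for 7 a 1.5-fold change. The summed level of the 29 genes was 989 to 1025 CPM in WT and 1044 to 1077 CPM in KI/+ libraries, which did not overlap. Of single genes tested, 9.35% did not overlap, and the KI/KI sums, at 978 to 1049 CPM, overlapped those of WT. Canx encodes calnexin, a lectin chaperone of the ER membrane. Its level was 291, 272 and 307 CPM in WT and 318, 326 and 325 CPM in KI/+ libraries. The genotypes did not overlap, with a log2 fold-change of 0.16 (SE 0.07, interval 0.01 to 0.30). Canx was the only one of the 12 with an unadjusted p under 0.05, where 4.23% of all genes had one. Edem1, Sel1l and Hyou1, which act in ER degradation and folding, had log2 fold-changes of 0.04, 0.12 and −0.02. Ern1 and Eif2ak3, the stress sensors IRE1 and PERK, gave 0.02 and −0.03, and Atf4 gave −0.05 at 6.01 CPM in WT. The chaperone gene Hspa5 did not pass the filter.

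Genes of the secretory pathway and of clearance behaved likewise. Of 27 genes of Golgi structure and ER to Golgi transport, 15 passed the filter and 0 were called, with 6 above and 9 below 0 and a median of −0.04. The most abundant was Cope, a coatomer subunit, at 1620 to 1644 CPM in WT and 1661 to 1725 CPM in KI/+ libraries. Its genotypes did not overlap, where 9.35% of all genes did not, and its log2 fold-change was 0.05 (interval −0.07 to 0.17). The widest spread was that of Golgb1, which encodes the Golgi tether giantin, with 129, 70 and 70 counts in WT and 56, 111 and 6 counts in KI/+ libraries. The low value was again that of KI/+ replicate 3, and the log2 fold-change of −0.68 (SE 0.45) became −0.27 without it. Of 19 genes of autophagy and lysosome, 7 passed the filter, with a median of 0.05, and Sqstm1, the cargo receptor p62, had means of 79.1 and 81.8 CPM. The median of the 7 was −0.07 without KI/+ replicate 3 and 0.0021 without WT replicate 1. Of 18 genes of inflammation 8 passed, with a median of 0.05, and none had an unadjusted p under 0.05.

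Ion channels and ataxia genes were examined for the same reason. All 12 of 22 channel genes of firing that passed the filter had 2-fold outside the interval, with a median log2 fold-change of 0. Kcnj10, a potassium channel gene of glia, was the most abundant, at 2804 to 2895 CPM in WT and 2912 to 3047 CPM in KI/+ libraries. These did not overlap, where 9.35% of all genes did not, and the interval ran from −0.06 to 0.17. Of 30 genes mutated in spinocerebellar ataxias, Kcnd3 included, 16 passed the filter with a median of 0.04. One of them, the TATA-binding protein gene Tbp, had an unadjusted p under 0.05 (log2 fold-change 0.39, SE 0.17), where 4.23% of all genes did. Tbp had 43, 38 and 43 counts in WT and 60, 61 and 44 counts in KI/+ libraries. Among 11 genes of mitochondrial shape, 7 passed with a median of 0, and 0 were called. The median of the 7 was 0.03 without KI/+ replicate 3 and −0.10 without WT replicate 1. Of 11 immediate early genes 5 passed, with log2 fold-changes from −0.06 to 0.11.

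**Figure D2:**
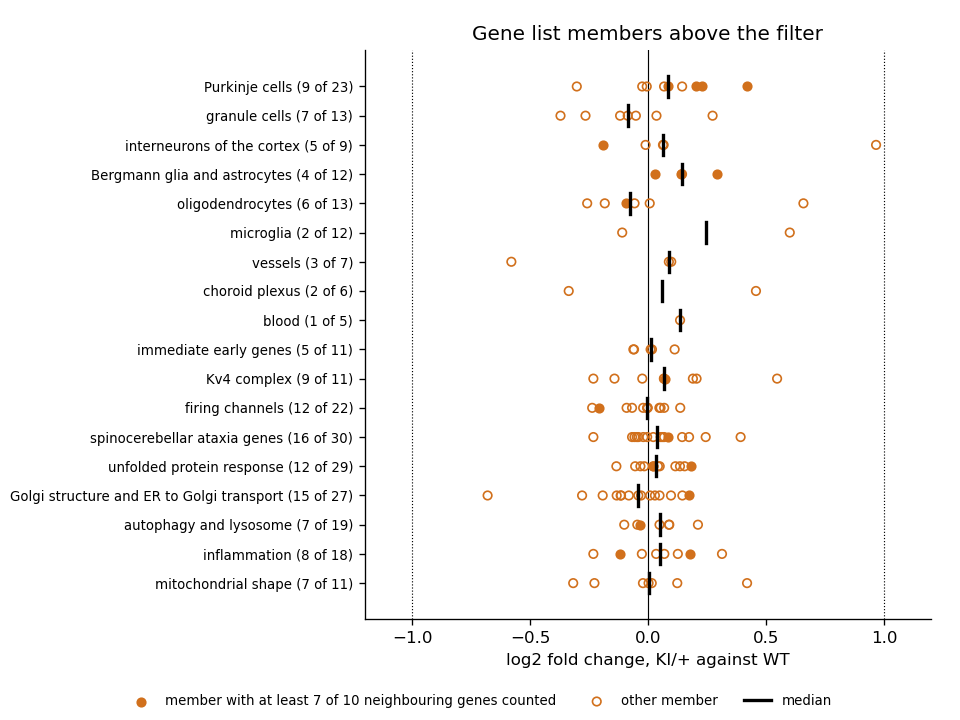
Each circle is the log2 fold-change of KI/+ against WT for 1 member of a gene list that passed the expression filter (x axis), by list (rows, with the number that passed of the number in the list), filled where at least 7 of 10 neighbouring genes were counted. Black bars are list medians, which lie between −0.09 and 0.25, dotted lines mark 2-fold, and no member was called.

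The smallest p-values were looked for among protein-coding genes with at least 7 of 10 neighbours counted whose genotypes did not overlap. They belonged to changes of moderate size, none of which passed the FDR limit with all libraries in the fit. Matn2, which encodes the matrix protein matrilin-2, had 11.6, 17.0 and 21.2 CPM in WT and 8.98, 9.24 and 7.37 CPM in KI/+ libraries. Its log2 fold-change was −0.93 (SE 0.26, edgeR FDR 0.998). Slc25a13, the mitochondrial aspartate-glutamate carrier, had 39.7, 48.6 and 50.1 CPM in WT and 36.9, 26.2 and 27.9 CPM in KI/+ libraries, a log2 fold-change of −0.59 (SE 0.17). Pdzd2, a protein with PDZ domains, gave −0.38 (SE 0.11), and Dnajc21, a co-chaperone of ribosome assembly, −0.28 (SE 0.10). Nmt1, the enzyme that attaches myristate to proteins, had 4.12, 8.31 and 8.20 CPM in WT and 3.80, 2.96 and 2.11 CPM in KI/+ libraries, and its log2 fold-change of −1.15 had an SE of 0.41. The RNA-binding gene Rbm12b2 and the predicted gene Gm21093, both with close copies that can share reads, gave −0.25 and −0.59. Gabrr2, a GABA receptor subunit, gave −0.59 (SE 0.23). With KI/+ replicate 3 left out, the log2 fold-changes of these 8 genes lay between −0.996, for Nmt1, and −0.17, for Rbm12b2. Genes chosen for not overlapping can hardly change sign when 1 library is left out, so their signs are no further evidence. Without WT replicate 1 Matn2 was called (−1.14, edgeR FDR 0.132), Gm21093 gave −0.33, and the other 6 were not called.

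In the other direction, under the same limits, Calb1 stood with genes of several roles. Tmem179b, a membrane protein gene, had 20.2, 23.3 and 20.7 CPM in WT and 30.7, 28.1 and 33.2 CPM in KI/+ libraries, a log2 fold-change of 0.51 (SE 0.15, edgeR FDR 0.998). Chd7, a chromatin remodeller, had 1607, 1632 and 1601 CPM in WT and 1711, 1889 and 1996 CPM in KI/+ libraries. The WT libraries lay close together, and the log2 fold-change was 0.21 (SE 0.06). Cnr1, the cannabinoid receptor of presynaptic terminals, had 2573, 2324 and 2287 CPM in WT and 2753, 2729 and 2659 CPM in KI/+ libraries. It gave 0.18 (SE 0.06), and its KI/KI libraries, at 2950 to 3107 CPM, lay above both other genotypes. Rragd, a GTPase that links nutrients to mTORC1, gave 0.19, Ikzf3, a zinc-finger transcription factor, 0.24, and Ccdc107 0.25. Ubxn1, a cofactor of the ATPase encoded by Vcp, gave 1.13 (SE 0.38) at 2.16 to 4.57 CPM in WT and 5.18 to 8.95 CPM in KI/+ libraries. Without KI/+ replicate 3 the 8 values lay between 0.15 and 0.96. Without WT replicate 1 Cnr1 gave 0.24 with an edgeR FDR of 0.184, which was under the FDR limit but not past the fold-change limit, as for Calb1, and none of the 8 was called.

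**Figure D3:**
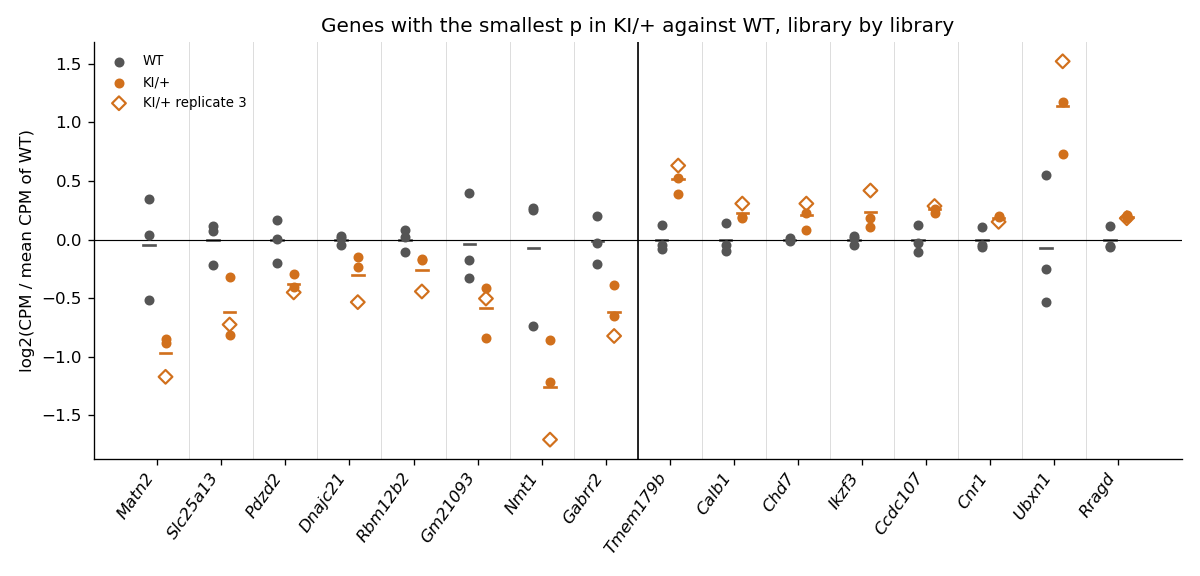
Level of the 8 genes with the smallest p in each direction (left, lower in KI/+; right, higher) in each WT and KI/+ library, as log2 of CPM over the mean CPM of WT (y axis), with open diamonds for KI/+ replicate 3 and bars for the means of the log2 values. The genes were chosen for not overlapping, and the differences of Calb1, Chd7, Cnr1 and Rragd are of about 0.2 while those of Matn2, Nmt1 and Ubxn1 are near 1 with a wide spread.

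The smallest p over all genes was that of Vcam1, a vascular adhesion molecule, which had 38, 29 and 22 counts in WT and 63, 64 and 42 counts in KI/+ libraries (14.2, 12.1 and 9.50 against 21.8, 23.7 and 22.1 CPM). Its log2 fold-change was 0.90 (SE 0.19, edgeR FDR 0.998), and 0.92 without KI/+ replicate 3. It was called without WT replicate 1 (1.06, edgeR FDR 0.0862), without both libraries (1.07, FDR 0.116) and with no count filter (0.89, FDR 0.0549). The genotypes did not overlap, but 3 of 10 neighbours were counted.

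Without WT replicate 1, 33 genes were called (27 lower, 0.243% of 11107, and 6 higher, 0.054%). Since none was called with this library in the same fit, its level in them is tied to that choice and is given as a description. In 8 of them 1 genotype had at most 3 counts in every library used, and 3 had at least 7 of 10 neighbours counted. Matn2 and Vcam1, described above, were among them. The next genes, apart from Foxp2 and Vamp1, were chosen after their values were seen. Hoxa9, a patterning gene of the posterior body, had 1, 150 and 151 counts in WT, 1, 1 and 0 in KI/+ and 54, 0 and 0 in KI/KI libraries, and Hoxa3, Hoxa4 and Hoxa10 were also called. Foxp2, a transcription factor of Purkinje cells with 8 of 10 neighbours counted, had 124, 55.3 and 50.5 CPM in WT, 124, 125 and 54.8 CPM in KI/+ and 54.9 to 63.7 CPM in KI/KI libraries. The values thus fell into a high and a low set that crossed the genotypes, with WT replicate 1 and KI/+ replicates 1 and 2 high. Tcf7l2, an effector of Wnt signalling, followed the same order with 63, 3 and 6 counts in WT and 68, 85 and 3 in KI/+ libraries, and so did Siae, with 531, 87 and 89 against 522, 511 and 64. The log2 fold-change of Foxp2 was 0.42 (SE 0.28) with all libraries, 0.97 (FDR 0.185) without WT replicate 1 and 0.68 without KI/+ replicate 3. Vamp1, a synaptic vesicle protein, gave −0.39 (SE 0.10, edgeR FDR 0.998) with all libraries and −0.53 (FDR 0.00159) without WT replicate 1, at 2028, 2794 and 2891 CPM in WT and 2026, 2003 and 1859 CPM in KI/+ libraries. The cause of the place of WT replicate 1 was not tested.

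The study's text names 14 genes as lower in KI/KI mice, a list chosen on these samples and so no independent evidence of direction. It compared KI/KI with WT and also with KI/+ mice, so a high level in KI/+ libraries could have entered the choice. In KI/+ against WT 0 of the 14 were called, 12 had a negative and 2 a positive log2 fold-change, and 4 had an unadjusted p under 0.05, with a median of −0.21. Over all genes 50.4% were under 0 and 4.23% had such a p. Without KI/+ replicate 3 the median was −0.01. This library was at or under the highest KI/KI library for 3 of the 14, Basp1, Tac1 and Rnf123, and at or over the lowest WT library for 3. KI/+ replicates 1 and 2 were each at or over the lowest WT library for 10 of the 14 and at KI/KI levels for 0. Basp1, a protein of growing nerve endings, showed this with 246, 278 and 308 CPM in WT, 283, 247 and 74.8 CPM in KI/+ and 66.9 to 87.7 CPM in KI/KI libraries. Tac1, the substance P precursor, had 21.2 to 24.7 CPM in WT, 31.4, 17.0 and 4.74 CPM in KI/+ and 1.89 to 5.64 CPM in KI/KI libraries. Their log2 fold-changes of −0.43 and −0.30 in KI/+ against WT became −0.06 and 0.08 without KI/+ replicate 3.

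**Figure D4:**
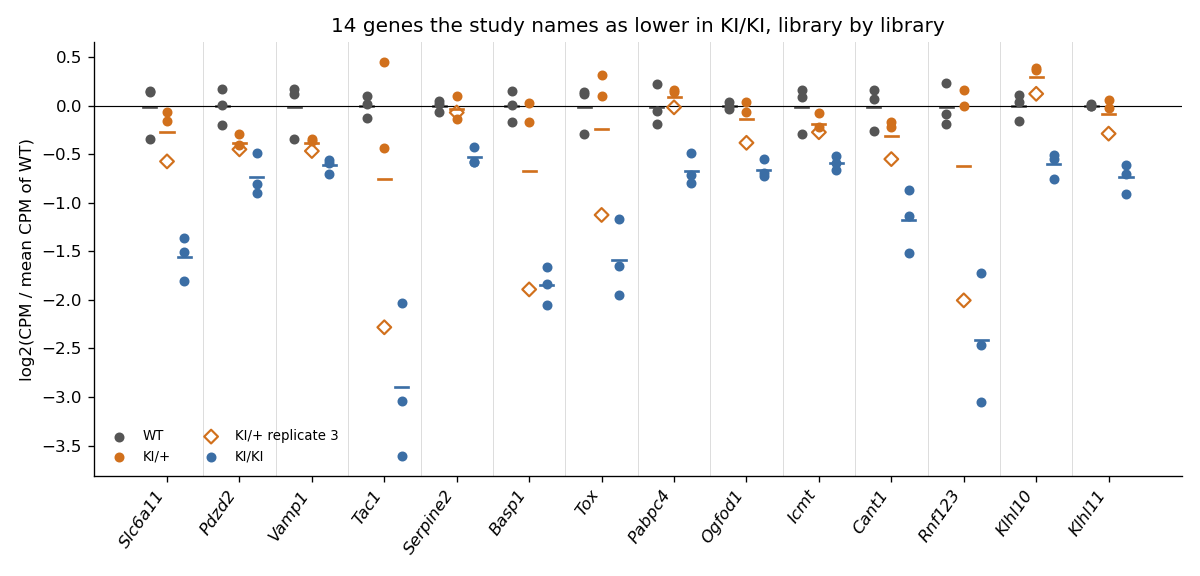
Level of the 14 genes in each library of the 3 genotypes, as log2 of CPM over the mean CPM of WT (y axis), with open diamonds for KI/+ replicate 3 and bars for the means of the log2 values. KI/+ replicates 1 and 2 lie near WT for Tac1, Basp1 and Rnf123, where KI/+ replicate 3 lies among the KI/KI libraries.

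Genes with a low value in KI/+ replicate 3 were not confined to that list. Chosen after their values were seen, among genes with at least 7 of 10 neighbours counted, the lipid phosphatase-related gene Plppr1 had 12.5 to 15.7 CPM in WT and 16.2, 14.8 and 0.527 CPM in KI/+ libraries. The cadherin genes Cdh9 and Cdh6 had 2.63 and 21.1 CPM in KI/+ replicate 3, against at most 15.9 and 61.5 CPM in the other KI/+ libraries, all higher than it. In the opposite direction Ddx58, which encodes the viral RNA sensor RIG-I, had 69.0 CPM there and 27.4 to 31.4 CPM in the other KI/+ libraries. The spread among KI/+ libraries was in these genes larger than the difference between the genotypes.

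To place each library between WT and KI/KI, 100 genes were chosen for each library from a comparison of KI/KI with WT that left out that library and all KI/+ libraries, and each value was scaled so that the WT mean was 0 and the KI/KI mean 1. The measure was added after the data were seen and is a description. All KI/+ libraries were placed with the same genes and means. For each WT or KI/KI library the genes differed, and the mean of its own genotype rested on the remaining libraries only. Medians of different genotypes are therefore not on 1 common scale. KI/+ replicates 1 and 2 had a median position of 0.27 and 0.26, and KI/+ replicate 3 of 0.58. WT replicates 2 and 3 stood at 0.11 and 0.09, whereas WT replicate 1 stood at 0.62, and the KI/KI libraries at 0.72, 0.60 and 1.08. KI/+ replicate 3 was nearer to KI/KI than to WT for 54 of the 100 genes, and KI/+ replicates 1 and 2 for 30 and 23. On these unlike scales, the median of KI/+ replicate 3 lay just under the lowest KI/KI median, and that of WT replicate 1 above it.

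**Figure D5:**
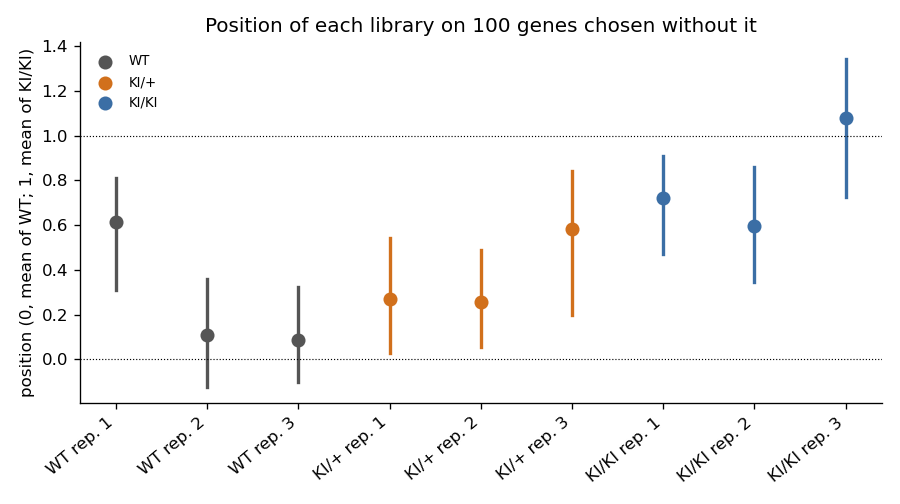
Median position of each library (points; bars from the 25th to the 75th percentile of 100 genes) on a scale where 0 is the mean of WT and 1 the mean of KI/KI (y axis), each library placed with genes chosen without it. KI/+ replicates 1 and 2 lie near 0.3, and KI/+ replicate 3 and WT replicate 1 near 0.6, with genes and means that differ between libraries except among KI/+.

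Whether 1 mutant allele placed a gene midway between WT and KI/KI was tested with a single contrast, KI/+ against the midpoint of WT and KI/KI on the log2 scale, for every gene. Of 10842 genes 0 were called below the midpoint and 2 (0.0184%) above it, with 604 (5.57%) at an unadjusted p under 0.05. Klhl10, a substrate adaptor of a ubiquitin ligase, had 64.8, 53.6 and 61.7 CPM in WT, 78.7, 77.6 and 65.3 CPM in KI/+ and 41.0, 42.1 and 35.5 CPM in KI/KI libraries. All KI/+ libraries lay above all WT libraries and these above all KI/KI libraries, with a distance from the midpoint of 0.60 (SE 0.10, edgeR FDR 0.119) and 7 of 10 neighbours counted. Klhl10 is among the genes that the study chose on these samples. Scara3, an oxidative stress response gene with 4 of 10 neighbours counted, was named after its values were seen; it had 37, 13 and 17 counts in WT, 41, 42 and 48 in KI/+ and 8, 19 and 12 in KI/KI libraries (distance 1.61, edgeR FDR 0.172). The next smallest p-values above the midpoint, not called, included Ccdc107 (0.27, SE 0.07) and Gng10, a G protein gamma subunit (0.32, SE 0.09). Below it they were those of Leng8, Gm5475, the imprinted gene Peg3 and the ubiquitin ligase gene Smurf2, with distances from −0.70 to −0.15. Without KI/+ replicate 3, 10 genes (0.0894% of 11181) were called above the midpoint and 0 below. Among them were Basp1 (0.86, FDR 0.000837), Tac1 (1.41, FDR 0.0687), Rnf123 (1.21, FDR 0.0101), Klhl10 (0.68, FDR 0.0152) and Tmem215 (2.25, FDR 0.0554). Basp1, Tac1 and Rnf123 are also genes that the study chose on these samples. In these and in Tmem215 the library left out lay at KI/KI levels. Their calls are therefore tied to that choice and are given as a description. Without WT replicate 1, 6 genes (0.054%) were called above and 2 (0.018%) below, without both libraries 17 (0.154%) and 1 (0.00905%), and with no count filter 21 (0.0686%) and 4 (0.0131%). The count above the midpoint was 0 when WT replicate 2 or 3, KI/+ replicate 1 or 2, or KI/KI replicate 1 or 3 was left out, and 0 after thinning to the smallest library, so that the calls of Klhl10 and Scara3 were lost there. Tmem215 had 9.74, 6.65 and 5.18 CPM in WT, 11.4, 9.98 and 1.05 CPM in KI/+ and 0 to 1.28 CPM in KI/KI libraries.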

How the data were processed

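RNA from laser-microdissected, Purkinje-cell-enriched cerebellum of 3 WT, 3 KI/+ and 3 KI/KI mice was extracted with a kit for formalin-fixed, paraffin-embedded tissue and sequenced from TruSeq Stranded mRNA libraries. The authors deposited raw counts of reads per gene, made with Rsubread, with no normalization. The submitters' processing notes list the builds GRCm38 and mm10, and the annotation, the strand setting and the treatment of reads with several matches are not given in the sources used here. Of 56953 Ensembl identifiers, 52029 were matched to GENCODE vM21 symbols, and 35 carried the same version number, all of them mitochondrial. No counts were moved between gene names. How the names bear on the results was not tested.

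Genes were kept by filterByExpr of edgeR 4.0.16 (minimum count 10), scaled by TMM, and tested by edgeR's quasi-likelihood test in 1 fit of all 9 libraries (R 4.3.3), with Benjamini-Hochberg adjustment. The limits for a DEG were those of the study, FDR below 0.2 and fold-change above 1.3. The SE was the absolute log2 fold-change divided by the square root of F, and 95% intervals used the fit's degrees of freedom. The script was tested on simulated data, in which each gene varied independently between libraries. Such data cannot show how deviations that many genes of 1 library share bear on the calls and intervals. DESeq2 1.42.0 and limma 3.58.1 (voom) were alternatives. Total counts of 1915339 to 4032357 a library set the precision, and intervals cover the spread between these libraries. Members and gene lists were chosen with earlier results of these data known. Genes were named by rule, from protein-coding genes with at least 7 of 10 neighbours counted: the 8 smallest p in each direction among genes whose genotypes did not overlap, the 4 smallest in each direction for the midpoint, the 3 smallest in each direction among the calls of an alternative, and the 5 narrowest intervals. The smallest p of all genes, the study's 14 genes, the Kv4 complex and sex-linked genes were named besides, and other genes only from the lists, the most abundant first, or where so stated. Some members of the gene lists are not reported here by name.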

Additional observations from a re-analysis of the deposited data

How the results depend on the processing

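The count of 0 DEGs in each direction held in every alternative except 3: no count filter (32 lower, 6 higher), WT replicate 1 left out (27 and 6), and that library left out with KI/+ replicate 3 (28 and 7). Leaving out libraries gave 0 to 28 lower, 0 to 7 higher, and 318 to 859 genes at an unadjusted p under 0.05, the highest values being those with both left out (733 without WT replicate 1 alone). Other alternatives gave 212 such genes by DESeq2 on 9 libraries, 153 by DESeq2 on 6, 937 with no count filter, 271 with the libraries named L1 alone, and 63 among genes with 7 of 10 neighbours counted, where fewer genes were tested. Above the midpoint 2 genes became 21 with no filter, 1 with at least 10 counts in every library, 5 with the replicate block, 1 with a term for the L1 libraries, 0 after thinning to the smallest library, 1 among genes with 7 neighbours, and 0 to 17 with libraries left out, 10 without KI/+ replicate 3. Below it 0 became 4 with no filter and 0 to 2 with libraries left out, 2 without WT replicate 1 and 1 without both. The cause was not tested. Intervals within 1.3-fold numbered 6448 with no filter. With 7 neighbours 562, 837 and 1108 lay within 1.3-, 1.5- and 2-fold, and with intervals widened to hold together 1, 911 and 3875.

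Of 55 named genes 40 kept their sign in KI/+ against WT throughout. Those chosen for not overlapping could hardly change it when libraries were left out. Tmem215 turned to −0.00458 with the L1 term and −0.28 after thinning. With the L1 libraries alone Basp1 gave 0.0213, Rnf123 0.0327, Klhl11 0.0248, Tox 0.29, Tac1 0.0224, Ogfod1 0.00567 and Kdm5d 0.0778, and with limma-voom Kcnd3 gave 0.17 and Dpp6 0.40. With libraries left out, log2 fold-changes ran from −0.26 to 0.85 for Tmem215, −0.0165 to 0.0404 for Vcp, −0.59 to 0.21 for Rnf123, −0.14 to 0.0172 for Klhl11, −0.10 to 0.0211 for Serpine2, −0.30 to 0.22 for Tox, −0.99 to 0.13 for Tac1, −0.0710 to 0.33 for Kcnd2, −0.58 to 0.48 for Kcnd3, −0.40 to 0.82 for Dpp6, −0.0624 to 0.23 for Kcnab2, −0.14 to 0.0621 for Kdm5d and −0.12 to 0.0716 for Uty.

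Deviations of same-numbered WT and KI/+ libraries from their genotype means correlated at 0.250, 0.0509 and 0.0906. With the same-numbered KI/KI libraries the values were 0.212, 0.160 and −0.0135 for WT and 0.248, 0.117 and 0.00291 for KI/+. The first replicates thus went together across genotypes, for a cause that was not tested. In the main fit the numbers were not taken as pairs. The replicate block left 0 genes called in KI/+ against WT, with 587 at an unadjusted p under 0.05. Where a genotype is left with 2 libraries, they are assumed to vary like the others.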
